A study of Homo sapiens with 6 samples.

Results

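The septins reported here are the 10 genes SEPT2 to SEPT11, whose symbols were turned into dates in the expression table, where SEPT4 is written 4-Sep. They were chosen by these names, and the gene ID and locus of each were then checked: all 10 IDs belong to the septin of the same number, and the loci of 8 of 10 equal those of GENCODE release 29, while those of SEPT3 and SEPT5 differ at an end. The 10 rows stand among 58302 genes in the table, of which 15572 had enough reads to be tested, all 10 septins included. A higher level of SEPT4 after treatment was already known when the genes were chosen, so its values are given without a test. The table was made from 6 mRNA sequencing libraries of MDA-MB-231-DR, a doxorubicin-resistant derivative of the MDA-MB-231 breast cancer cell line. 3 libraries came from control cells and 3 from cells treated with cyperotundone (CYT), a compound from sedge, and the study asked how CYT acts on drug-resistant cells. Per the study's methods, the resistant line is kept in medium with low-dose doxorubicin, and no difference between the groups in this is stated. Whether doxorubicin was present in the sequenced cells, and the dose and duration of CYT for sequencing, are not given in the sources used here.

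Septins are GTP-binding cytoskeletal proteins that assemble into rod-shaped complexes and then into filaments and rings, which lie under the membrane and along actin and microtubules. They fall into homology groups named after SEPT2, SEPT3, SEPT6 and SEPT7, and a rod takes its subunits from different groups, so members of one group can stand in for each other while SEPT7 is the sole member of its own. Septins are best known for their part in cytokinesis, where anillin brings them to the contractile ring, and SEPT9 is also known for links to microtubules and to breast cancer cell migration.

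The libraries held 14050849 to 17770102 counts in control and 13056270 to 14106017 after CYT. Correlations of log2 CPM (CPM, read counts scaled to library size, here normalised by TMM, the trimmed mean of M values) between replicates of a group ran from 0.904 to 0.971, the 2 lowest being those of CYT replicate 2. The labels do not say whether replicates were separate cultures, so p-values measure the spread between these libraries. All 4 markers of this mesenchymal-like line were expressed in all libraries. VIM and AXL were lower after CYT (log2 fold changes of -1.30 and -0.82, edgeR adjusted p = 0.00535 and 0.0444, the call of AXL being lost with any 1 library left out, adjusted p up to 0.131). CD44 and MSN did not pass (-0.19 and -0.73, edgeR adjusted p = 0.639 and 0.0929). The summed level of ESR1, PGR, EPCAM and CDH1, which the line largely lacks, was 0.426 to 0.806 CPM in control and 1.27 to 1.92 CPM after CYT.

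SEPT4 was the septin chosen for its higher level after CYT. SEPT4 (4-Sep in the table, ENSG00000108387, chr17:58520250-58540818, minus strand, GRCh38) belongs to the SEPT2 group, and the gene also encodes ARTS, a pro-apoptotic isoform that antagonises XIAP, which gene counts cannot separate from the other isoforms. The control libraries held 18, 16 and 17 counts of SEPT4, or 1.12, 0.852 and 1.22 CPM. The CYT libraries held 132, 249 and 128 counts, or 9.31, 17.7 and 10.2 CPM. Every CYT library thus lay far above every control library. The mean went from 1.06 ± 0.191 to 12.4 ± 4.63 CPM (SD, n = 3 each), a log2 fold change of 3.54 (SE 0.43), or 11.6-fold. Of the 15572 tested genes, 582 had a higher log2 fold change.

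SEPT9 had the lowest log2 fold change of the 10. SEPT9 (9-Sep in the table, ENSG00000184640, chr17:77280569-77500596, plus strand) is the SEPT3 group member found in most cells and sits with SEPT2, SEPT6 and SEPT7 in the longer form of the rod. Its counts were 6195, 2625 and 4429 in control and 597, 224 and 486 after CYT, which is 384, 140 and 318 CPM against 42.1, 15.9 and 38.6 CPM. Replicate 2 was the lowest library in both groups, yet the lowest control library was still above the highest CYT library. The mean fell from 281 ± 126 to 32.2 ± 14.2 CPM (SD, n = 3 each), 8.71-fold lower, with a log2 fold change of -3.12 (SE 0.50) and an adjusted p = 0.00229 (quasi-likelihood F-test of edgeR, Benjamini-Hochberg over all tested genes, called edgeR adjusted p from here on). This fall passed the threshold in all 13 alternative settings, and 120 tested genes had a lower log2 fold change. In bulk RNA, less RNA per cell and fewer cells of a kind cannot be told apart, which holds for every gene here.

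SEPT4 and SEPT9, which had the highest and the lowest log2 fold change of the 10 in the fit of all 6 libraries, and SEPT11, the septin with the highest FPKM after CYT, also differ in the sequence before their starts, which is shown for that reason. The stretches below are the 250 bases before a start in RefSeq (GRCh38.p14), written 5′ to 3′ on the gene's strand. The start nearest the 5′ end of the GENCODE gene was taken, and gene counts cannot tell which start was used. For SEPT4 that start lies 3.51 kb upstream of the 5′ end of the gene, outside the locus that was counted. The stretch shown for SEPT4 also covers the start of a neighbouring gene, C17orf47 (3.55 kb upstream). For SEPT8 the start taken lies 29229 bases downstream of the 5′ end of the gene. Capitals mark GC boxes, GGGCGG on either strand, the site of SP1-type factors. SEPT4 lies at chr17:58544329-58544578 (minus strand), SEPT9 at chr17:77281249-77281498 (plus strand) and SEPT11 at chr4:76949502-76949751 (plus strand).
SEPT4: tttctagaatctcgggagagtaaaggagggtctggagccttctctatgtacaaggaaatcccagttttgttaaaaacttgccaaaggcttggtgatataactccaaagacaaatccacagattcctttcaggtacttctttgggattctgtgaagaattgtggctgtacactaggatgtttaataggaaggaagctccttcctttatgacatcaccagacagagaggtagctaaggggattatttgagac
SEPT9: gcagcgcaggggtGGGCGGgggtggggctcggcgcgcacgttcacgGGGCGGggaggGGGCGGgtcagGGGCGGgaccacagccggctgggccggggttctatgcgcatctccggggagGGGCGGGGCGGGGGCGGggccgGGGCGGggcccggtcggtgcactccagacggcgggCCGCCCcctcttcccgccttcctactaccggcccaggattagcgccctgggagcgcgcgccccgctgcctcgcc
SEPT11: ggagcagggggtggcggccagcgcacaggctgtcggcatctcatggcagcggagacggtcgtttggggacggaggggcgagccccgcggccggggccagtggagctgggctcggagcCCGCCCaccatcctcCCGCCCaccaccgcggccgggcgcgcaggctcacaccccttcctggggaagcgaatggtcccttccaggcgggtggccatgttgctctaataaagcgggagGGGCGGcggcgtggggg
The SEPT4 stretch holds 1 CpG and is 41.6% GC, with no GC box. The SEPT9 stretch holds 32 CpG and 9 GC boxes, some of which overlap, and is 80.4% GC. The SEPT11 stretch holds 25 CpG and 3 GC boxes and is 73.6% GC, where the median over 35116 human promoters of this length was 11 CpG. Sequences were at hand for 8 of the 10 genes (not for SEPT3 and SEPT5). A GC box was present in 5 of these 8 promoters (SEPT2, SEPT6, SEPT9, SEPT10 and SEPT11) against 42.6% of all promoters, and CCAAT in 2 (SEPT2 and SEPT7) against 32.0%. TATAAA, the AP-1 site TGANTCA and the core of the antioxidant response element, TGACNNNGC, searched on both strands, were found in none of the 8 and in 10.7%, 6.57% and 10.9% of all promoters. RefSeq lists 4 starts for SEPT4, with 1 to 26 CpG and a GC box at 1 of them, and 10 starts for SEPT9, with 2 to 32 CpG and a GC box at 5. A GC box also stood at 2 of 3 starts of SEPT7 and 1 of 2 of SEPT8, so all 8 genes had one at some start, and the counts and the contrast above hold for the starts chosen and not for every start.

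Of the other members of the SEPT2 group, SEPT5 was lower after CYT, and SEPT2 and SEPT1 did not pass the test. SEPT5 (5-Sep in the table, ENSG00000184702, chr22:19714464-19724772, plus strand), a septin best known from neurons and platelets, where it acts on exocytosis, was low throughout. Its counts were 43, 57 and 35 in control and 12, 5 and 5 after CYT. All CYT libraries were below all control libraries, and the mean was 2.74 ± 0.267 against 0.533 ± 0.272 CPM (SD, n = 3 each), 5.06-fold lower, with a log2 fold change of -2.34 (SE 0.51). SEPT5 reached 10 counts in all 3 control libraries but in 1 CYT library, so it passed the filter on low counts through the group where it was higher, and no p is given from that fit. In the fit with no filter its log2 fold change was -2.41 (edgeR adjusted p = 0.00712). The ratio of SEPT4 to SEPT5 in FPKM (fragments scaled to library size and gene length) was 0.303, 0.203 and 0.352 in control and 7.97, 36.1 and 18.6 after CYT. GP1BB, a platelet gene that overlaps exons of SEPT5 on the same strand, had no count in 5 libraries and 11 counts in CYT replicate 3, and whether such shared reads entered SEPT5 was not tested.

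SEPT2 (2-Sep in the table, ENSG00000168385, chr2:241315100-241354027, plus strand), which lends its name to the group and is present in most dividing cells, was the abundant member. It had 80.2, 94.5 and 122 CPM in control and 123, 190 and 251 CPM after CYT. The groups did not overlap, but the highest control and the lowest CYT library were almost level. The mean was 98.7 ± 21.0 against 188 ± 64.1 CPM (SD, n = 3 each), a log2 fold change of 0.93 (SE 0.34), which did not pass the threshold (edgeR adjusted p = 0.0666). It passed when the replicate number entered the fit as a block (log2 fold change 0.89, edgeR adjusted p = 0.0171). SEPT1, the fourth member of the group and not among the 10, had 20, 22 and 44 counts in control and 54, 9 and 43 after CYT, which overlap (log2 fold change 0.50, edgeR adjusted p = 0.610).

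Among the SEPT6 group, SEPT6 was lower and its relatives were not. SEPT6 (6-Sep in the table, ENSG00000125354, chrX:119615724-119693370, minus strand) had 22.2, 13.5 and 17.8 CPM in control and 9.52, 7.26 and 9.38 CPM after CYT, so each CYT library was below each control library. The mean fell from 17.8 ± 4.34 to 8.72 ± 1.27 CPM (SD, n = 3 each), 2.04-fold lower, with a log2 fold change of -1.03 (SE 0.33, edgeR adjusted p = 0.0424). This call lay close to the threshold and was lost in 8 of 13 settings. Among them were those without control replicate 1, control replicate 3, CYT replicate 1 or CYT replicate 3 (edgeR adjusted p up to 0.142).

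SEPT11 (11-Sep in the table, ENSG00000138758, chr4:76949703-77040384, plus strand), which can take the place of SEPT6 in the rod, had 72.7, 106 and 68.9 CPM in control and 131, 273 and 121 CPM after CYT. All CYT libraries were higher, with CYT replicate 2 far above the other two. The mean was 82.5 ± 20.4 against 175 ± 85.3 CPM (SD, n = 3 each), and the log2 fold change of 1.09 (SE 0.38, edgeR adjusted p = 0.0598) did not pass the threshold. With the replicate block it did (1.01, edgeR adjusted p = 0.0116), and without CYT replicate 2 it was 0.60 (edgeR adjusted p = 0.117). The FPKM ratio of SEPT6 to SEPT11 was between 0.144 and 0.344 in control but between 0.0299 and 0.0873 after CYT.

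SEPT8 (8-Sep in the table, ENSG00000164402, chr5:132750817-132807241, minus strand), another member of the SEPT6 group, had 46.6, 51.5 and 52.0 CPM in control and 65.2, 90.6 and 64.5 CPM after CYT. These groups did not overlap, yet the log2 fold change of 0.55 (SE 0.28) did not pass the threshold (edgeR adjusted p = 0.173). SEPT10 (10-Sep in the table, ENSG00000186522, chr2:109542982-109614206, minus strand), of the same group, had 43.0, 68.3 and 45.9 CPM in control and 50.1, 111 and 63.5 CPM after CYT. Its groups overlapped (log2 fold change 0.52, SE 0.37, edgeR adjusted p = 0.325), and replicate 2 was the highest library in both.

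SEPT7 (7-Sep in the table, ENSG00000122545, chr7:35800932-35907105, plus strand), the subunit that no other septin replaces, had 109, 121 and 96.8 CPM in control and 59.9, 165 and 104 CPM after CYT. The CYT libraries lay on both sides of the control range, and the log2 fold change was 0.0056 (SE 0.38, edgeR adjusted p = 0.993). The SEPT7 count is uncertain, because 14 SEPT7 pseudogenes in the table carried counts equal to 7.08% to 22.4% of it and the treatment of reads that match several copies is not given in the sources used here. SEPT3 (3-Sep in the table, ENSG00000100167, chr22:41976272-41998221, plus strand), known from neurons and the relative of SEPT9 in its group, was near the lower end of detection. It had 43, 39 and 19 counts in control and 36, 17 and 14 after CYT, with overlapping groups (log2 fold change -0.33, SE 0.51, edgeR adjusted p = 0.663).

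**Figure D1:**
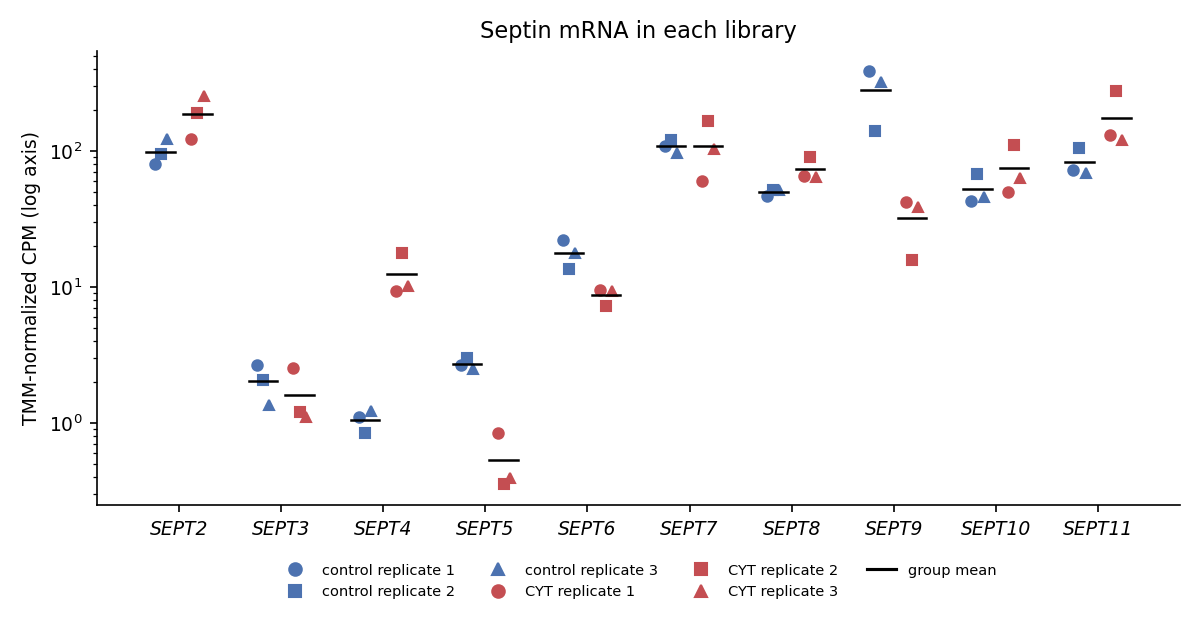
TMM-normalised CPM (log axis) of the 10 septins in each library, with control in blue, CYT in red, the marker shape giving the replicate number and black lines the group means. SEPT2, SEPT4, SEPT8 and SEPT11 lay higher in all 3 CYT libraries and SEPT5, SEPT6 and SEPT9 lower in all 3, while SEPT3, SEPT7 and SEPT10 overlapped.

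Leaving out SEPT4 and SEPT5, the other 8 septins had at least 10 counts in all 6 libraries, and 2 of them passed the test, both lower (SEPT6 and SEPT9), where 28.6% of all tested genes passed, 15.7% higher and 12.9% lower. None of the 8 passed as higher in the edgeR fit with TMM scaling, and 2 of them had an unadjusted p under 0.05 in that direction (21.5% of all tested genes did). DESeq2 called 2 as higher (SEPT2 and SEPT11), as did edgeR with upper-quartile scaling (adjusted p = 0.0401 and 0.0394) and with the replicate block. As higher, these 3 fits called 2928, 2879 and 3120 of the 15572 tested genes. On simulated counts with 200 changed genes, DESeq2 made more false calls than edgeR but also recovered more of the changes. That is far fewer changed genes than were called here, so the false share need not carry over. Over all tested genes, in either direction, DESeq2 called 33.9% and the block 39.9%. Control and CYT libraries did not overlap for 5 of the 8, 3 higher and 2 lower, against 46.1% of all tested genes, 23.4% higher and 22.7% lower. The median log2 fold change was 0.26 over the 8 and 0.0056 with SEPT5 added, where it was 0.0064 over all tested genes.

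**Figure D2:**
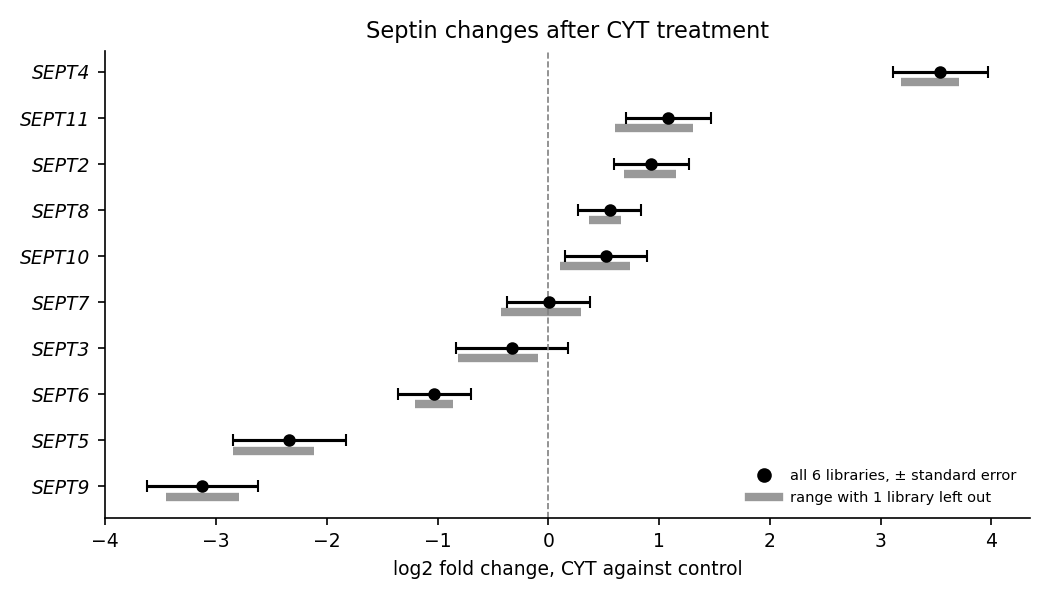
Log2 fold change of each septin, CYT against control, as points with standard errors from all 6 libraries, and grey bars for the range when any 1 library was left out. SEPT4 at 3.54 and SEPT9 at -3.12 stand at the ends, and the grey bar of SEPT7 crosses 0.

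Levels can be compared between septins only per length, on the FPKM scale. In control, SEPT9 came first at 8.997 ± 3.65 FPKM (SD, n = 3), followed by SEPT7 (7.01 ± 1.11), SEPT10 (6.39 ± 2.10), SEPT11 (6.21 ± 1.92) and SEPT2 (5.44 ± 1.27). Neighbours among these first 5 overlapped between libraries. SEPT8 (2.80 ± 0.325), SEPT6 (1.48 ± 0.268) and then SEPT3 (0.210 ± 0.0611) were each separate from the gene above, SEPT5 (0.208 ± 0.0318) overlapped SEPT3, and SEPT4 was last at 0.0579 ± 0.00857. After CYT the order was SEPT11 (13.5 ± 7.49), SEPT2 (10.4 ± 3.20), SEPT10 (9.33 ± 4.60), SEPT7 (7.21 ± 3.87), SEPT8 (4.19 ± 1.13), SEPT9 (1.05 ± 0.432), SEPT6 (0.739 ± 0.0746), SEPT4 (0.699 ± 0.307), SEPT3 (0.170 ± 0.0842) and SEPT5 (0.0408 ± 0.0208). Neighbours from SEPT11 to SEPT8 and from SEPT9 to SEPT4 overlapped. By group mean, SEPT9 had moved from first to sixth and SEPT4 had moved up to the level of SEPT6, which is still low beside SEPT2. In control replicate 2, SEPT9 (4.86 FPKM) lay below SEPT10 (8.78), SEPT11 (8.43), SEPT7 (8.27) and SEPT2 (5.53). The gene lengths behind the deposited FPKM are 1.34 to 2.85 times the exonic lengths of GENCODE release 29. With those exonic lengths SEPT9 was again first in control and sixth after CYT, but SEPT2 rather than SEPT11 was first after CYT. In control, SEPT2 and SEPT10 then had higher means than SEPT7, and SEPT5 had a higher mean than SEPT3. After CYT, SEPT4 then had a higher mean than SEPT6.

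As a share of the summed FPKM of the 10 septins, the SEPT3 group, which is almost all SEPT9, made up 32.4%, 12.5% and 27.2% in the control libraries and 4.95%, 1.04% and 3.16% after CYT. The groups did not overlap, and the mean share differed by -21.0 percentage points. The SEPT6 group went from 43.3 ± 8.28% to 57.8 ± 8.13% and the SEPT2 group from 14.7 ± 3.06% to 24.6 ± 7.61% (SD, n = 3 each). Without CYT replicate 3 the mean share of the SEPT2 group differed by 5.63 rather than 9.89 percentage points. The libraries of the SEPT6 group overlapped (52.8% in control replicate 2 and 48.5% in CYT replicate 3). Shares add up to a whole, so a smaller SEPT3 group enlarges the others: without the SEPT3 group in the sum, the SEPT6 group made up 56.7 ± 3.49% in control and 59.6 ± 8.25% after CYT, the SEPT2 group 19.5 ± 4.46% and 25.4 ± 7.97%, and SEPT7 23.8 ± 2.15% and 15.1 ± 2.56% (SD, n = 3 each). Of the full sum, SEPT7 took 18.02 ± 2.17% in control and 14.6 ± 2.75% after CYT, a difference close to the spread between replicates. The summed level itself was 37.1, 40.7 and 38.7 FPKM in control and 33.5, 67.5 and 41.1 FPKM after CYT, which overlap, and CYT replicate 2 was the highest. The ratio of SEPT9 to SEPT7, the partner it meets in the rod, was 1.79, 0.588 and 1.67 in control and 0.358, 0.0493 and 0.189 after CYT. The ratio of SEPT11 to SEPT7 went the other way, from between 0.773 and 1.02 in control to between 1.36 and 2.54 after CYT. These shares and ratios describe the chosen genes and carry no test, and they are of mRNA, not of protein or of assembled rods.

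**Figure D3:**
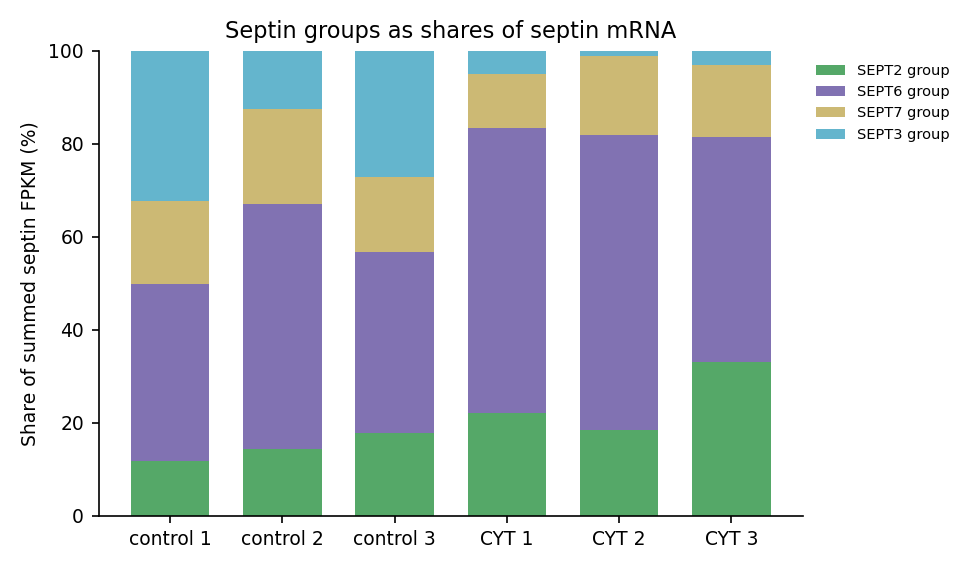
Share of the summed FPKM of the 10 septins, in percent, taken by each homology group in each of the 6 libraries, as stacked bars from 0 to 100. The SEPT3 group shrinks from between 12.5% and 32.4% in control to between 1.04% and 4.95% after CYT.

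Some genes around SEPT4 on chromosome 17 were also higher after CYT. Within 200 kb of SEPT4 the table has 20 other rows, 7 of which had enough reads to be tested. Of these, 5 had at least 10 counts in every control library, and 3 of the 5 passed as higher, where 15.7% of all tested genes did, in a window chosen because of SEPT4. None passed as lower with edgeR, none had an unadjusted p under 0.05 in that direction, and 12.9% of all tested genes passed as lower. The remaining 2, C17orf47 and TSPOAP1-AS1, had no count in control and passed the filter on low counts through CYT alone, so their counts are given without a test. TEX14, a testis gene for intercellular bridges that ends 15.9 kb upstream of SEPT4 on the same strand, had 40, 25 and 23 counts in control and 635, 893 and 605 after CYT (log2 fold change 4.84, SE 0.39, edgeR adjusted p = 0.000302). C17orf47 lies between them on the same strand and had no count in control and 12, 11 and 14 after CYT. It starts 3.55 kb upstream of the 5′ end of SEPT4, where the RefSeq start of SEPT4 shown above lies 3.51 kb upstream, so reads of the 2 genes cannot be told apart with certainty. Downstream of SEPT4, RNF43, a ubiquitin ligase that restrains WNT receptors, had 17, 13 and 10 counts in control and 100, 102 and 98 after CYT (3.15, SE 0.40, edgeR adjusted p = 0.00102). SUPT4H1, a transcription elongation factor, differed less (1.03, SE 0.26, edgeR adjusted p = 0.0171) and lost its call without any 1 library other than CYT replicate 2 (adjusted p up to 0.0884). TSPOAP1-AS1, on the opposite strand, had no count in control and 80, 43 and 57 after CYT. The nearest tested gene downstream, MTMR4, a lipid phosphatase, did not pass (-0.17, edgeR adjusted p = 0.691), nor did the DNA repair gene RAD51C (0.34, edgeR adjusted p = 0.559). SEPT4 therefore lay among both genes that passed and genes that did not.

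**Figure D4:**
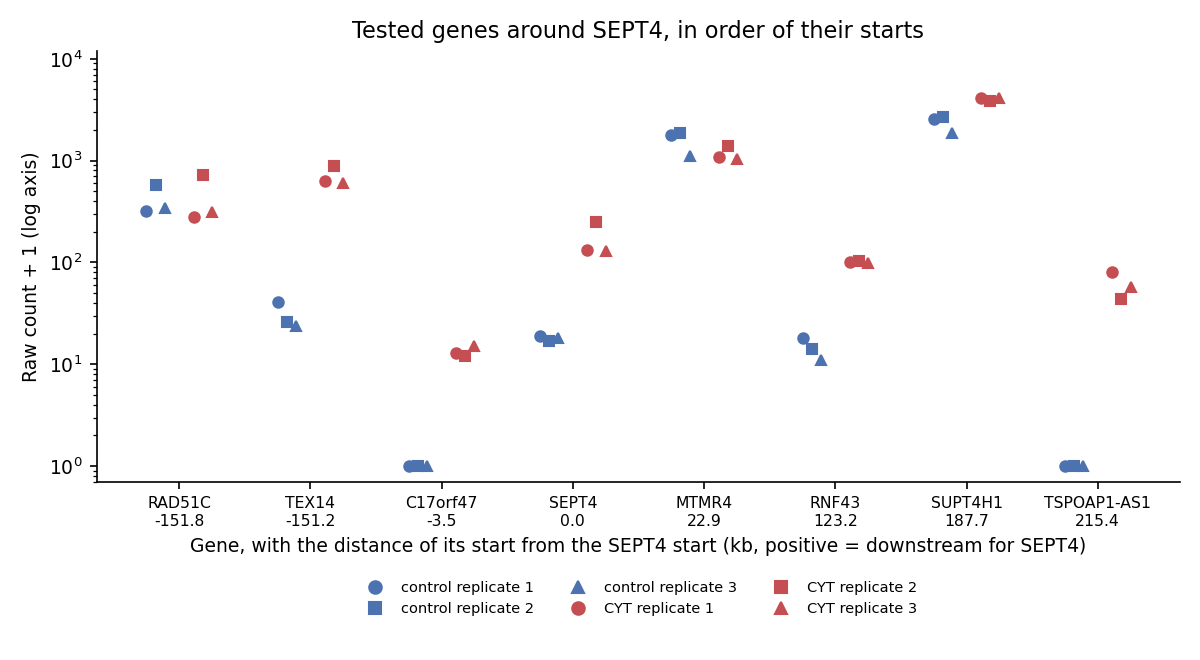
Raw counts plus 1 (log axis) of SEPT4 and the 7 tested genes within 200 kb of it, ordered by the distance of each gene's start from the SEPT4 start in kb, with control in blue and CYT in red. TEX14, C17orf47, SEPT4, RNF43 and TSPOAP1-AS1 lie clearly higher after CYT, while MTMR4 and RAD51C overlap.

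Overlapping and related genes were checked for reads that could bear on the septins. Of 18 rows that overlap one of the 10 septins, HDLBP and AC068594.1 reached 10 counts in 3 libraries. HDLBP, an RNA-binding protein gene on the other strand at the 5′ side of SEPT2, did not pass (log2 fold change -0.42, edgeR adjusted p = 0.314). AC068594.1, a long noncoding RNA opposite SEPT9 that shares no exonic base with it, had 1, 0 and 2 counts in control and 32, 11 and 28 after CYT. It passed the filter on low counts through the CYT libraries alone, so no test is given for it. Whether counting used strand is not given in the sources used here. Among 38 septin pseudogene, antisense and intronic rows, 16 had no count and 4 were tested (AC093752.1, AC138393.1, SEPT7P2 and SEPT7P6), of which none passed with edgeR, and none had an unadjusted p under 0.05. SEPT14, known from testis, had no count in any library.

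The genes whose profiles were most like SEPT4 over the 6 libraries, by the root mean square difference of log2 CPM centred on each gene's mean among 11416 genes, were SGMS1-AS1 (0.182), SERINC5 (0.193) and RGS2 (0.197). The nearest septin was SEPT11 at 1.22. Those most like SEPT9 were BRSK1 (0.203), MOB3A (0.216) and GTF2IRD1 (0.231), and the nearest septin was SEPT5 at 0.776. In these profiles SEPT4 was highest in CYT replicate 2, and SEPT9 was lowest in that library.

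Genes that act with septins were taken from lists of genes by role. CDC42, the small GTPase upstream of septins, fell (log2 fold change -1.13, SE 0.28, edgeR adjusted p = 0.0151), a call lost without control replicate 3, CYT replicate 1 or CYT replicate 3 (adjusted p up to 0.0688). Of its BORG effectors, which bind septins directly, CDC42EP4 rose from 90.1 ± 4.17 to 292 ± 101 CPM (SD, n = 3 each; 1.69, SE 0.33, edgeR adjusted p = 0.00523) and did so in all 13 settings, while CDC42EP2 fell (-1.33, SE 0.43, edgeR adjusted p = 0.0421). The CDC42EP2 call held in 7 of 13 settings. It was lost without replicate 1 or 3 of either group, with upper-quartile scaling and with a 5 CPM minimum (adjusted p up to 0.121). In this list of 6 genes, 5 were tested, 1 rose and 2 fell, and the median log2 fold change was -0.70. The 3 of 5 that passed are 60.0% of the list, beside 28.6% of all tested genes, and with the replicate block all 5 passed, beside 39.9% of all. Without control replicate 3, CYT replicate 1 or CYT replicate 3, 1 of the list passed, and without control replicate 1, 2. CDC42EP5 had 4, 0 and 18 counts in control and 1, 0 and 0 after CYT and was not tested. Of 6 other septin partners, only MAP4, which competes with septins on microtubules, passed (-0.97, edgeR adjusted p = 0.0303), and it lost the call without any 1 library other than CYT replicate 2 (adjusted p up to 0.105). That is 16.7% of the list, with a median of -0.36, and ARHGEF18, the exchange factor that binds SEPT9, did not pass (-0.12, edgeR adjusted p = 0.823). None of the 6 passed as higher in the TMM fit, where 1, SOCS7, had an unadjusted p under 0.05 in that direction (0.73, edgeR adjusted p = 0.0800). SOCS7 passed as higher with upper-quartile scaling, DESeq2, the block and without CYT replicate 2. In all, 2 of the 6 passed with each of the first 3, and 3 without CYT replicate 2.

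The cytokinetic ring list was the longest. Of its 18 genes, 10 fell and 1 rose, with a median log2 fold change of -1.15, so that 61.1% passed beside 28.6% of all tested genes. The 11 became 6 without CYT replicate 1 and 5 without CYT replicate 3. PLK1, the mitotic kinase, fell from 290 ± 46.2 to 33.1 ± 8.82 CPM (SD, n = 3 each; -3.13, SE 0.33, edgeR adjusted p = 0.000544), and AURKB, the kinase of the chromosomal passenger complex, fell by 2.34 on the log2 scale (SE 0.39, edgeR adjusted p = 0.0026). ANLN, the anillin that brings septins to the ring, fell by 1.57 (SE 0.42, edgeR adjusted p = 0.0214), a call lost without control replicate 2, CYT replicate 1 or CYT replicate 3 (adjusted p up to 0.0820). The non-muscle myosin gene MYH9 fell (-1.79, SE 0.37, edgeR adjusted p = 0.00663), while its relative MYH10 rose (1.05, SE 0.34, edgeR adjusted p = 0.0421), a call lost in 8 of 13 settings, among them those without any 1 library other than CYT replicate 2 (adjusted p up to 0.139). Of 10 abscission genes, CHMP1B rose (1.21, edgeR adjusted p = 0.00987) and VPS4A fell (-1.13, edgeR adjusted p = 0.0295; lost without replicate 1 or 3 of either group, adjusted p up to 0.1001), with a list median of -0.18. The 2 that passed are 20.0% of that list, below the 28.6% of all tested genes, and 1 passed without replicate 1 or 3 of either group. Of 8 exocyst genes, whose tethering complex is linked to septins in secretion, EXOC2 and EXOC3 fell (-2.29 and -1.96, edgeR adjusted p = 0.00238 and 0.00235) and none passed as higher in the TMM fit, 1 having an unadjusted p under 0.05 in that direction. As higher, DESeq2 called EXOC1, the block EXOC1 and EXOC7, and the fit without CYT replicate 2 EXOC7. The 2 are 25.0% of the list, also below 28.6%, its median was -0.27, and 5 of the 8 passed with the block or without CYT replicate 2.

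None of the 7 genes linked to ARTS, the SEPT4 isoform, passed with edgeR (median 0.44), although 3 had an unadjusted p under 0.05, DESeq2 called 1 and the block called 4. XIAP, the inhibitor that ARTS antagonises, had 130, 211 and 304 counts in control and 391, 935 and 78 after CYT, which overlap (1.29, SE 0.71, edgeR adjusted p = 0.202). Without CYT replicate 3, the library with 78 counts, XIAP passed as higher (1.79, edgeR adjusted p = 0.0457), and without CYT replicate 2 it was 0.30 (edgeR adjusted p = 0.727). BIRC3, a relative of XIAP, did not pass either (-1.42, edgeR adjusted p = 0.109), but did with the replicate block (-1.77, edgeR adjusted p = 0.00743) and without CYT replicate 2 (-2.62, edgeR adjusted p = 0.00199). Over the 6 lists together 19 of 54 tested genes passed (35.2%, beside 28.6% of all tested genes), and 31 with the replicate block (beside 39.9% of all).

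**Figure D5:**
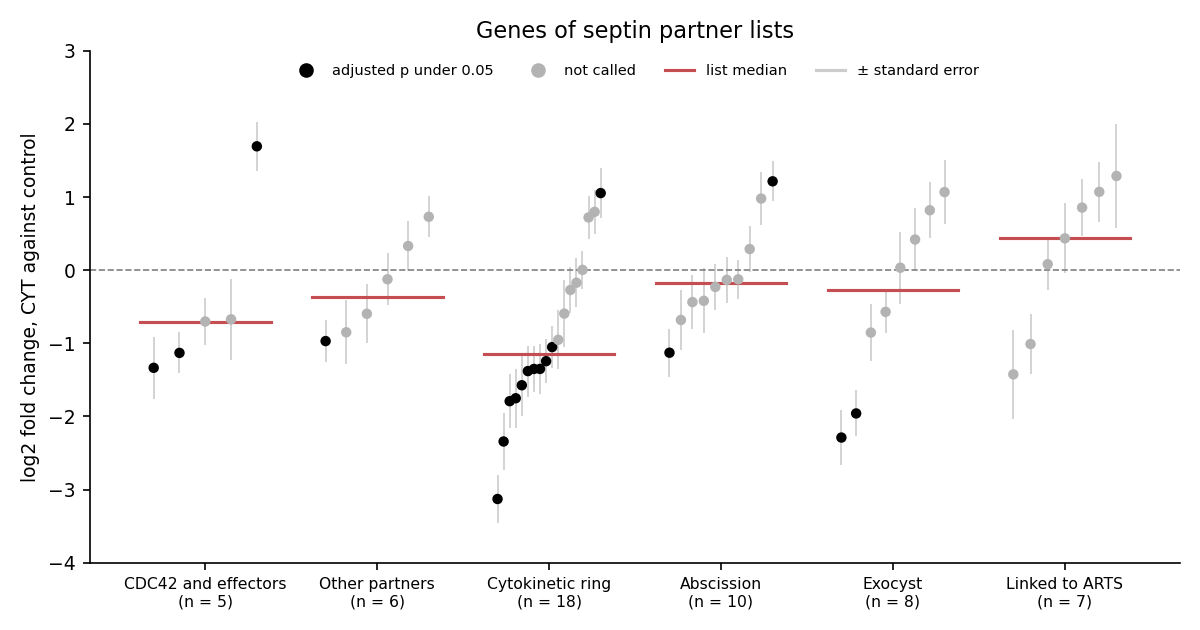
Log2 fold change, CYT against control, of the tested genes of the 6 lists of septin partners, as points with standard errors (black where the adjusted p is under 0.05, grey otherwise), with list medians as red lines. The cytokinetic ring list has the lowest median, -1.15, and the list around XIAP the highest, 0.44.

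Several septins are known from other cell types, so markers of these were summed. The 6 neuronal markers, relevant to SEPT3 and SEPT5, gave 3.09 to 3.83 CPM in control and 1.76 to 3.70 CPM after CYT, with SNAP25 at no count. The 6 platelet markers gave 0.692 to 1.05 CPM in control and 1.83 to 4.05 CPM after CYT, with PPBP and GP9 at no count. All 6 spermatid markers had no count in any library. The 6 leukocyte markers gave 0.213 to 1.37 CPM in control and 4.09 to 5.41 CPM after CYT, with CD3E at no count. Among them CD14 had 10, 4 and 19 counts in control and 51, 59 and 49 after CYT. The part of these low levels in the septin values was not tested. SRSF1, the splicing factor on which the study centres, had 2135, 2636 and 1800 counts in control and 256, 370 and 265 after CYT, and splice forms of the septins cannot be read from gene counts.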

How the data were processed

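Sequenced mRNA came from MDA-MB-231-DR cells, 3 control and 3 CYT-treated libraries, run on an Illumina NovaSeq. The authors removed low-quality, adapter and rRNA reads and aligned the rest with Hisat2. The submitters' processing notes name hg38 and FastQC 0.12.1. The deposited table gives raw read counts per gene, for which the counting program, annotation and strand setting are not given in the sources used here, and FPKM values, for which the authors name StringTie. In 10160 genes with at least 50 counts in each library, the FPKM matched the counts with 1 fixed length per gene within 0.00209%.

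Counts were tested with edgeR 4.0.16 (TMM, filterByExpr with a minimum count of 10, quasi-likelihood F-test, Benjamini-Hochberg adjustment over 15572 genes, threshold 0.05) in R 4.3.3, without a replicate block. SE is the absolute log2 fold change over the square root of F. Alternatives were DESeq2 1.42.0, upper-quartile scaling, all genes with a count, genes averaging 5 CPM or more, limma 3.58.1 on FPKM as log2 after adding 1 or 0.1, a block for the replicate number, leaving out each library, and for the shares TMM CPM, all septin rows and GENCODE exonic lengths, the last chosen after seeing the data. The code was tested on simulated counts. The p of SEPT5 is from the fit with no filter. The labels number replicates 1 to 3 in both groups without stating a shared source. Deviations from the group means correlated at 0.188, 0.458 and 0.124 for equal numbers, each over 0.1, so the block is given where it changes a call.

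The members, gene lists and the window around SEPT4 were chosen with earlier results of these data known. Named were the 10 septins, other septin rows, overlapping genes with at least 10 counts in 3 libraries, tested genes within 200 kb of SEPT4, the 2 strongest called genes per list and direction, and the 3 genes (mean of at least 5 CPM) most like SEPT4 and SEPT9. Beyond that rule, SEPT4-linked XIAP and BIRC3, and ANLN, MYH9, ARHGEF18, SOCS7, EXOC1, EXOC7, CDC42EP5, CD44, MSN and SRSF1 were named after their values were seen. Promoters are from RefSeq. Some genes of the lists are not reported here by name.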

Additional observations from a re-analysis of the deposited data

Results flagged for a closer look

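5 genes near the septins or of their family, too low to be tested, had over 3 counts in a CYT library and either no count in control or more counts in every CYT library than in any control library. The antisense gene SEPT4-AS1, which lies opposite SEPT4, reached 8 counts after CYT, with at least 6 in each CYT library, against at most 3 in control. CCNI2, which overlaps SEPT8, reached 9 counts after CYT, with at least 3 in each, and had 0 in control. GP1BB, which overlaps SEPT5, reached 11 counts in 1 CYT library and had 0 in the other libraries. SEPT12, a testis septin outside the 10, reached 5 counts after CYT and had 0 in control. AC111182.1, which overlaps SEPT9, reached 4 counts in 1 CYT library and had 0 in control. These are raw counts at the edge of detection and carry no test.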

How the results depend on the processing

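Of the 9 septins tested, only SEPT7 changed direction in any setting. SEPT9 kept its call in all 13 settings. The count of genes called was 4451, 2859 for genes averaging 5 CPM or more, 6209 with the replicate block, and 2891 to 5752 with 1 library left out. Among the 8 septins with at least 10 counts in all libraries, leaving out SEPT4, those called higher went from 0 to 2 with DESeq2, upper-quartile scaling and the replicate block, and were 0 in each fit with 1 library left out. Those called lower went from 2 to 1 with upper-quartile scaling, no filter, a 5 CPM minimum and log2(FPKM + 0.1), and were 1 to 2 with 1 library left out. SEPT2 passed with DESeq2 (log2 fold change 0.96), upper-quartile scaling (1.07) and the block (0.89), and SEPT11 with the same 3 (1.11, 1.23 and 1.01). SEPT6 did not pass with upper-quartile scaling (-0.88), no filter (-1.09), a 5 CPM minimum (-0.93) or log2(FPKM + 0.1) (-0.91). The SEPT4 difference was 0.67 on log2(FPKM + 1) and 2.28 on log2(FPKM + 0.1), where the pseudocount exceeds its control level. On these scales SEPT5 was -0.21 and -1.13, also with low levels, and SEPT6 on the first -0.51. SEPT7, near 0, turned negative with no filter (-0.080), log2(FPKM + 1) (-0.061), log2(FPKM + 0.1) (-0.084) and the block (-0.10). With 1 library left out the log2 fold changes ran from 0.68 to 1.16 (SEPT2), -0.81 to -0.091 (SEPT3), 3.19 to 3.70 (SEPT4), -2.84 to -2.12 (SEPT5), -1.21 to -0.86 (SEPT6), -0.42 to 0.29 (SEPT7), 0.37 to 0.66 (SEPT8), -3.45 to -2.79 (SEPT9), 0.11 to 0.73 (SEPT10) and 0.60 to 1.30 (SEPT11). Partner list genes called went from 19 to 31 with the block and ran from 10 to 28 with 1 library left out. As shares of TMM CPM, not per length, the SEPT3 group differed by -33.7 and SEPT7 by -0.38 percentage points. With 1 library left out the share differences ran from 5.63 to 13.0 (SEPT2 group), -26.7 to -16.8 (SEPT3 group), 11.6 to 19.3 (SEPT6 group) and -4.57 to -1.88 (SEPT7) percentage points.

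Upper-quartile scaling moved the median over all tested genes to 0.16 and the share of higher among called genes from 55.02% to 63.9%. In the fit with no filter, which gave the p of SEPT5, the median was 0.41 over its 32060 genes and the share of higher 57.5%. Changes under these 2 fits are read against those shifts. Except where named above, causes of these differences were not tested. Same-numbered libraries correlated, but control replicate 1 correlated more with CYT replicate 3 (0.303) and control replicate 3 more with CYT replicate 1 (0.201) than with their own numbers, so the pairing is a hint from the data and not from the design. With 3 libraries a group, a septin with fewer than 20 counts in a library, as SEPT3, SEPT4 and SEPT5 had, is measured with wide counting error. SEPT14 at 0 counts allows up to 3 counts in a library.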
